A study of Mus musculus with 2 samples.

Results

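The genes described are 9 tubulin genes and the tubulin-binding protein gene Stmn1 (stathmin), taken by gene symbol from the table of expression values: the alpha-tubulin genes Tuba1a, Tuba1b, Tuba1c and Tuba4a, the beta-tubulin genes Tubb2a, Tubb2b, Tubb5 and Tubb6, the gamma-tubulin gene Tubg1, and Stmn1. All 10 were measured, each by 1 probe set, among 19505 named mouse genes. They were measured on whole-transcript arrays in macrophages grown from bone marrow with M-CSF, the growth factor of the macrophage lineage. For both groups the culture held 10% fetal bovine serum, and 25 ng/mL M-CSF was given at day 0 and at day 3. Use of the cells began at day 5. There were 2 groups with 1 array each. Cells of the genotype MC4RTB/TB are called TB/TB here, and cells of the genotype LysM (+);MC4RTB/TB, which carry the same TB alleles of the melanocortin 4 receptor together with LysM, are called LysM(+). In background terms, a TB allele is one whose transcription is blocked until Cre recombinase removes the block, and LysM is a myeloid promoter commonly used to drive Cre; the labels spell out neither. The sources used here give neither the age and sex of the mice nor whether marrow of several mice was pooled. A single array stands for each group, which leaves no replicate error and allows no test, so all differences describe these 2 arrays.

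Microtubules are hollow polymers of alpha- and beta-tubulin dimers. Mammals make each partner from several genes, called isotypes, which differ mainly in their acidic C-terminal tails. Gamma-tubulin does not form the polymer wall; it sits in a ring complex from which new microtubules grow. Stathmin binds free alpha-beta dimers and destabilises microtubule ends, and mitotic kinases switch it off by phosphorylation when the spindle forms. In macrophages microtubules carry phagosomes and secretory vesicles and reach the podosomes, and a dividing cell rebuilds the whole array into the spindle.

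Proteins of the Tuba1 genes are nearly identical, and the start regions are shown to let these paralogues be compared where the products give little to compare. RefSeq promoter windows of GRCm38.p6 were matched for 6 of the 10 genes. Each sequence holds the 200 bases before the annotated start, 5′ to 3′ on the strand of the gene, in a window of 300 bases of which 250 lie before the start and 50 after it. Tuba1a lies on the minus strand at chr15:98953502-98953701, Tuba1b on the minus strand at chr15:98934391-98934590 and Tuba1c on the plus strand at chr15:99029691-99029890. Tuba4a lies on the minus strand at chr1:75219295-75219494, Tubb2a on the minus strand at chr13:34078009-34078208 and Tubb5 on the minus strand at chr17:35838302-35838501. Capitals mark matches, on either strand, to CCAAT, the core element that the factor NF-Y binds. They also mark GGGCGG, the core element that Sp1-type factors bind. They also mark TATAAA, the element of some core promoters that sets the start.
Tuba1a: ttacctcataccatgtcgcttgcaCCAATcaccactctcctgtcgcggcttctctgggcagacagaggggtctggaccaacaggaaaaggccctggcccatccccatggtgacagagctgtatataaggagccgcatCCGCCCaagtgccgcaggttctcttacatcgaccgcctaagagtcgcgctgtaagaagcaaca
Tuba1b: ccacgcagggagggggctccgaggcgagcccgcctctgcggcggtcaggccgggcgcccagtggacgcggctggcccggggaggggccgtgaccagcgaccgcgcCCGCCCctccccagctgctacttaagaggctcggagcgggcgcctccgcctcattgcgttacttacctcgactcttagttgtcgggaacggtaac
Tuba1c: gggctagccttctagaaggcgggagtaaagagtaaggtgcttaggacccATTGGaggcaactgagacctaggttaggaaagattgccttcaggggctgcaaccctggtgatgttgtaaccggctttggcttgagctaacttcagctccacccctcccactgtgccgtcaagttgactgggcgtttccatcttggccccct
Tuba4a: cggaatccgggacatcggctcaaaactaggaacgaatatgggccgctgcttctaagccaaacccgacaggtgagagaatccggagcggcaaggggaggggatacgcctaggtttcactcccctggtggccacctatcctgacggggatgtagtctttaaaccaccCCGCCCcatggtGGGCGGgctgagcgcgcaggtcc
Tubb2a: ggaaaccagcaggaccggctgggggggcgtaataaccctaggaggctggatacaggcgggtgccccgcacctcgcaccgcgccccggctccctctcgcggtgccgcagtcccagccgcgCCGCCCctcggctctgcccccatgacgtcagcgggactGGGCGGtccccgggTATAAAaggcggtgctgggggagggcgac
Tubb5: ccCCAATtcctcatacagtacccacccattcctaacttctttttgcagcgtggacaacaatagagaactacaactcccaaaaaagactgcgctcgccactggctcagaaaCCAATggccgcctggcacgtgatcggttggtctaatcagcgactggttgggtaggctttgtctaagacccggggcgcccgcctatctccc

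CCAAT, in either orientation, was found in the windows of Tuba1a, Tuba1c and Tubb5, 3 of the 6, against 37.4% of all 32851 promoter windows of the same length. Tubb5 held it at 2 positions, beginning at positions -198 and -90 from the start. GGGCGG, in either orientation, was found in 5 of the 6 windows of 300 bases, all but that of Tuba1c, against 35.7% of all windows. In the printed 200 bases it was found in 4 of the 6, against 31.0%. The Tubb5 matches begin at positions -2 and 26 and are not capitalised. This motif and TATAAA were added to the search after the promoters were seen. TATAAA was found in the window of Tubb2a, from position -29, against 13.6% of all windows on either strand. The cell cycle element TTTGAA (17.9% of all windows) and the E2F-type strings TTTGGCGC (0.514%) and TTTCGCGC (0.323%) were found in 0 of the 6 windows on either strand, which says only that these letters are not in these windows. The printed stretches of Tuba1b and Tubb2a were 72.0% and 73.0% G or C, with 24 and 21 CG dinucleotides, against a median of 53.0% and 5 over all windows cut the same way. Tuba1c and Tubb5 were 55.0% and 54.0% G or C, with 4 and 10 CG dinucleotides. The windows therefore differ in base composition and in the motifs they hold even among Tuba1a, Tuba1b and Tuba1c, genes with the same kind of product. No motif was shared by all 6.

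The whole data set bears on these genes in a few facts. Values were read as log2 and ran from 2.57 to 19.5, a top value above the usual range of RMA. Whether the values were transformed further was not tested, and every fold rests on the log2 reading. The median of the named probe sets' means over both arrays, 6.12, served as a brightness floor, which the brighter array had to reach for a gene to be counted as differing, and values of 23 background control probe sets lay between 3.09 and 6.81. Macrophage markers were bright on both arrays, with all 9 measured (of 10 listed) between 12.41 and 19.04 and a median difference of -0.20. Markers of T, NK and B cells reached the floor for 1 of 9 measured genes, Cd4. Proliferation markers differed most. All 9 measured had higher values in LysM(+), against 57.1% of all genes reaching the floor. Their summed log2 values were 86.2 in LysM(+) and 69.8 in TB/TB, with a median difference of 1.90. Of the 9, 5 were at background level on at least 1 array. Mc4r itself was dim, with log2 values of 4.45 in LysM(+) and 4.57 in TB/TB, so the arrays do not check the genotype.

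All 10 tubulin and stathmin genes had higher values on the LysM(+) array. Higher by any amount were 49.3% of all 19505 genes and 57.1% of the 10137 genes that reached the floor. The median difference, LysM(+) minus TB/TB, was 0.66 on the log2 scale, or 1.58-fold, against -0.0062 over all 19505 genes and 0.065 over the 10137 genes that reached the floor. Among the 10, 5 were counted as at least 1.5-fold higher with the floor reached (Tuba1b, Tuba4a, Tubb2a, Tubb6 and Stmn1), and 0 as at least 1.5-fold lower. The background was 10.9% of genes reaching the floor counted as higher and 5.16% counted as lower. The 10 genes and all gene lists were chosen with earlier results of these data known, so counts set beside these shares are descriptions. Of the other 5, Tuba1a, Tuba1c and Tubb5 lay just under 1.5-fold, Tubg1 was nearly level, and Tubb2b was too dim to be counted. Because the isotype genes are paralogues whose probes may share signal, the 10 are not 10 independent measurements. With Tuba1a, Tuba1b and Tuba1c averaged into 1 unit and Tubb2a and Tubb2b into another, 5 of 7 units were at least 1.5-fold higher. This merging was chosen after seeing the data. It averages the dim Tubb2b with Tubb2a, leaves the other isotypes separate and cannot show how much signal is shared. The Tuba1 unit passed although Tuba1a and Tuba1c alone did not.

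**Figure D1:**
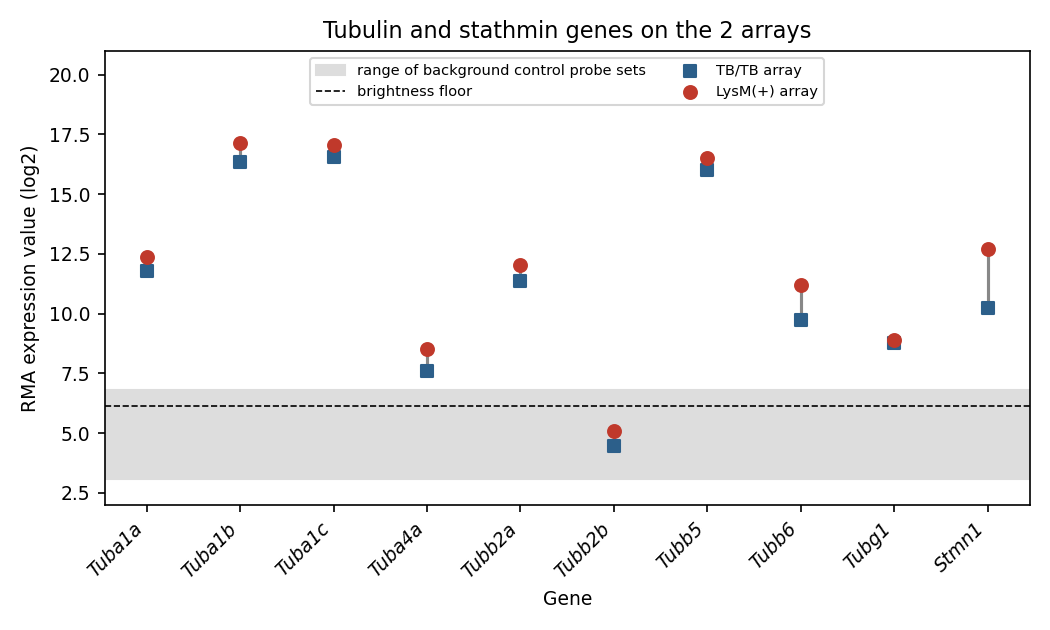
RMA expression values (log2) of the 10 genes on the TB/TB array (blue squares) and the LysM(+) array (red circles), with the brightness floor of 6.12 (dashed line) and the values spanned by background control probe sets, 3.09 to 6.81 (grey band). The red circle lies above the blue square for every gene; Tubb2b lies inside the grey band on both arrays, and the widest gap is that of Stmn1.

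Stmn1 showed the largest difference of the 10 genes. Its log2 value was 12.71 in LysM(+) and 10.23 in TB/TB, a difference of 2.48 or 5.58-fold. Both values were far above the background controls, so the fold does not rest on a dim array. Among the 10137 genes reaching the floor, its difference was number 43 from the highest. The stathmin paralogues Stmn2, Stmn3 and Stmn4, best known from neurons, were too dim to show whether they shared it. Stmn2 had values of 4.68 in LysM(+) and 5.06 in TB/TB, and Stmn4 had 3.95 and 3.81, all within the background control range. Stmn3 had 6.41 in LysM(+) and 6.82 in TB/TB, a difference of -0.41. Its LysM(+) value was within that range, and its TB/TB value lay at the upper edge of it, 6.81. A difference past 1.5-fold was therefore seen for 1 gene of the stathmin family of 4, the family's bright one.

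Tubb6, a beta-tubulin isotype expressed in many tissues and known to make microtubules less stable when abundant, had the next largest difference. Its log2 value was 11.21 in LysM(+) and 9.75 in TB/TB, a difference of 1.47 or 2.76-fold, number 149 from the highest. Tubb2a, a beta isotype found in brain and many other tissues, had 12.03 in LysM(+) and 11.35 in TB/TB, a difference of 0.68 or 1.61-fold. Tubb5, the main beta-tubulin of most dividing and non-dividing cells, had 16.49 and 16.00, a difference of 0.49 or 1.40-fold, which fell short of the 1.5-fold limit. The 3 bright beta isotypes thus spanned differences from 0.49 to 1.47. Tubb2b, the near-identical neighbour of Tubb2a known from developing neurons, had 5.10 in LysM(+) and 4.46 in TB/TB. Its difference of 0.64 was close to that of Tubb2a, but both values lay under the floor and within the background control range. Whether it reflects Tubb2b transcripts, signal shared with Tubb2a or background was not tested.

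The alpha-tubulin genes moved within a narrower range. Tuba1b, the ubiquitous alpha-tubulin, had a log2 value of 17.13 in LysM(+) and 16.36 in TB/TB, a difference of 0.77 or 1.70-fold. Tuba1c had 17.07 and 16.55, a difference of 0.53 or 1.44-fold. Tuba1a, the alpha-tubulin that dominates in developing neurons, had 12.36 and 11.80, a difference of 0.56 or 1.47-fold. These 3 genes differed from each other by at most 0.24 in their difference, so the counting of Tuba1b alone rests on a limit that Tuba1a missed by 0.03. Tuba4a, an isotype encoded without the C-terminal tyrosine of the other alpha-tubulins, had the largest alpha difference, with 8.53 in LysM(+) and 7.60 in TB/TB, 0.92 or 1.90-fold. No paralogue shared exact values with another gene, so the probe sets are distinct, but how much signal similar transcripts contribute to each was not tested.

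Tubg1, the main gamma-tubulin of dividing cells, barely differed. Its log2 value was 8.90 in LysM(+) and 8.79 in TB/TB, a difference of 0.10 or 1.08-fold, and it ranked at number 4665 of 10137. Both values were above every background control.

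Differences spread less widely among bright genes, so the members were set beside genes of their own brightness. Among the 720 genes whose brighter value was at least 14, 6.81% were at least 1.5-fold higher in LysM(+), and the central 80% of differences ran from -0.30 to 0.45. Tuba1b (0.77), Tuba1c (0.53) and Tubb5 (0.49) all lay above that range. Among the 2170 genes from 11 to below 14, 9.35% were at least 1.5-fold higher and the central 80% ran from -0.32 to 0.57. Stmn1 (2.48), Tubb6 (1.47) and Tubb2a (0.68) lay above it and Tuba1a, at 0.56, just inside it. Among the 4000 genes from 8 to below 11, 13.1% were at least 1.5-fold higher and the central 80% ran from -0.38 to 0.66, with Tuba4a (0.92) above and Tubg1 (0.10) inside. These ranges describe the same 2 arrays and hold both true differences and array noise.

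**Figure D2:**
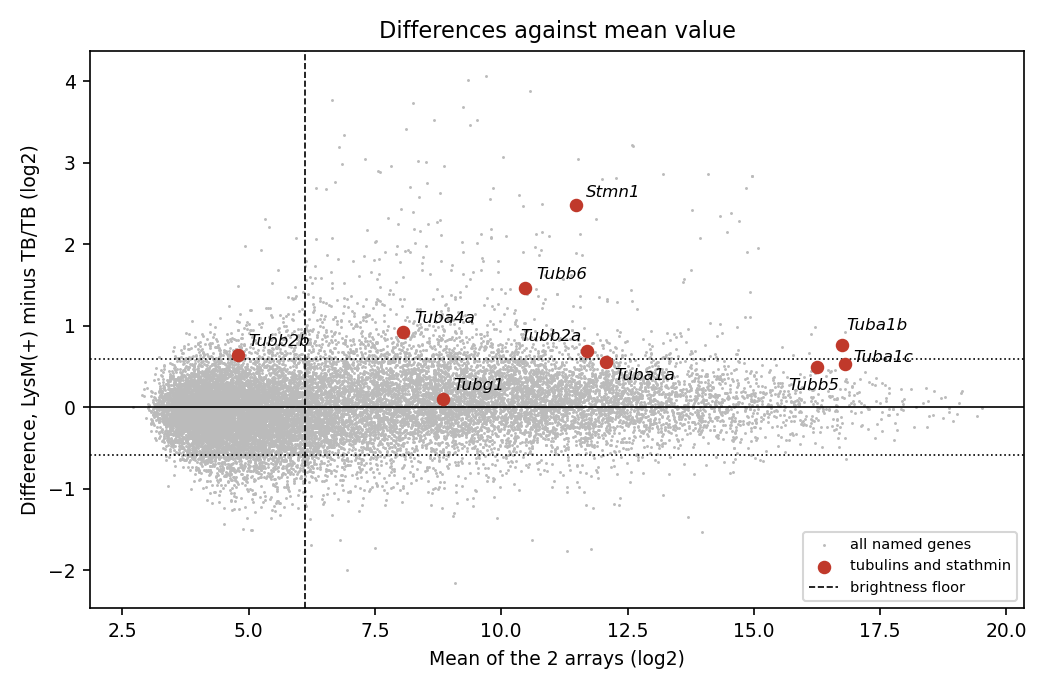
Difference LysM(+) minus TB/TB (log2, vertical axis) against the mean of the 2 arrays (log2, horizontal axis) for all 19505 named genes (grey points) and the 10 tubulin and stathmin genes (red circles); dotted lines mark 1.5-fold and the dashed line the brightness floor. Stmn1 at 2.48 and Tubb6 at 1.47 stand toward the upper edge of the cloud, Tuba1b, Tuba1c and Tubb5 lie at its bright end, and Tubg1 is near 0.

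The other 11 tubulin genes on the array, listed with the 10 in mind, went both ways. Their median difference was -0.06, with 4 higher and 7 lower by any amount. Of the 11, 8 lay within the background control range on at least 1 array and 6 on both. The median and the split by direction therefore rest largely on background-level values. Of the 6 that reached the floor, 2 were counted as higher and 1 as lower, against 10.9% and 5.16% of all genes reaching it. Tubb4b, a widely expressed beta isotype that is also a main tubulin of cilia, had log2 values of 9.27 in LysM(+) and 8.54 in TB/TB, a difference of 0.73 or 1.66-fold. Tuba8 had 8.55 and 8.50, a difference of 0.05, the smallest among the alpha isotypes above background. Tube1, epsilon-tubulin, which acts at centrioles, had 7.02 in LysM(+) and 5.50 in TB/TB, a difference of 1.52. The TB/TB value of Tube1 lay under the floor and within the background control range, so its fold of 2.86 is not exact. Tubd1, delta-tubulin, another centriole tubulin, had 7.41 and 7.47, a difference of -0.06. Tubg2, the second gamma-tubulin gene and the direct neighbour of Tubg1, went the other way, with 6.24 in LysM(+) and 6.89 in TB/TB, a difference of -0.66; its LysM(+) value was within the background control range.

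The remaining beta- and alpha-tubulin genes were at background level on both arrays. Tubb1, the platelet beta-tubulin, had 5.76 in LysM(+) and 5.08 in TB/TB, a difference of 0.68 that was not counted because both values were under the floor. Of 7 other measured platelet and megakaryocyte markers, 4 reached the floor; Ppbp and Pf4 were higher by 2.16 and 1.23, whereas the platelet glycoprotein gene Gp9 differed by -0.07 and Itga2b by -0.21. The summed log2 value of these 7, without Tubb1, was 51.9 in LysM(+) and 48.3 in TB/TB, and its part in the Tubb1 value was not tested. Tubb3, the neuronal beta-tubulin, had 6.12 and 6.31, and Tubb4a had 5.23 and 5.25. Tuba3a, Tuba3b and Tubal3 differed by -0.10, -0.15 and -0.09. Over all 20 tubulin genes, 11 were above every background control value on both arrays, and 10 of these 11 had higher values in LysM(+), the exception being Tubd1. Those 11 are a choice made by brightness and the share is a description. Among all genes reaching the floor, 57.1% had higher values in LysM(+) by any amount.

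**Figure D3:**
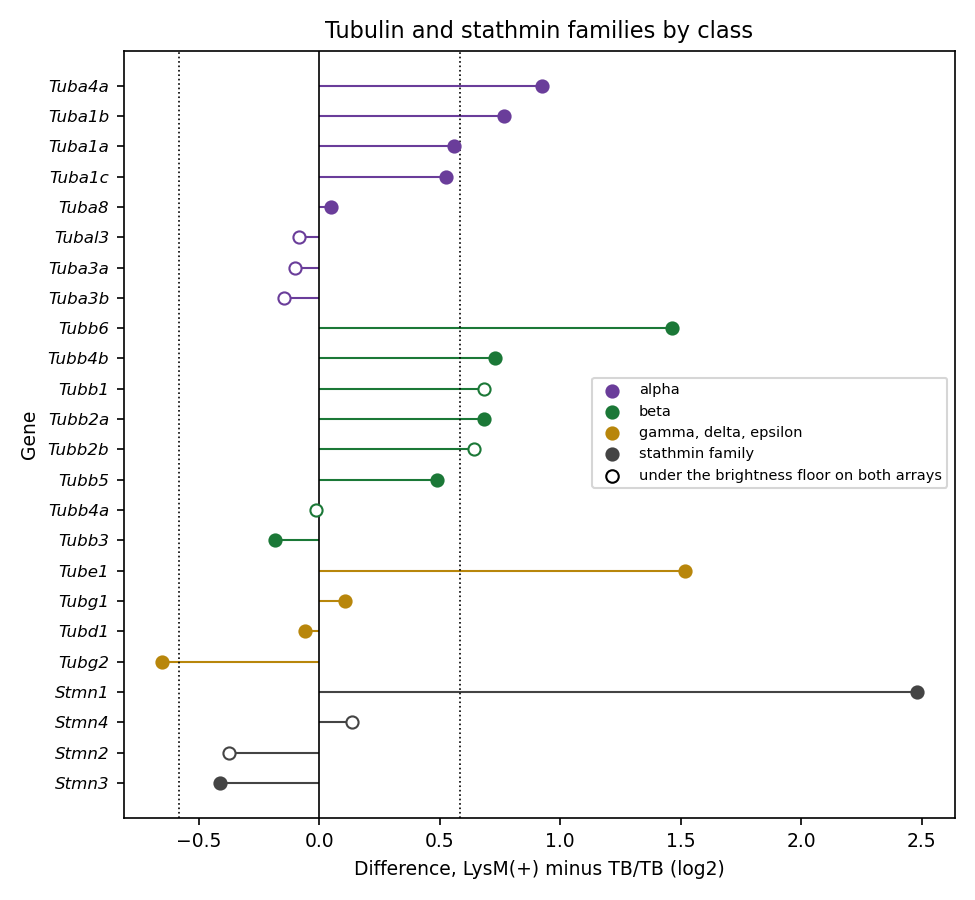
Difference LysM(+) minus TB/TB (log2) of 20 tubulin genes and 4 stathmin genes, grouped by class; filled circles are genes whose brighter value reached the floor, open circles genes under it on both arrays, and dotted lines mark 1.5-fold. Alpha and beta isotypes with filled circles lie to the right of 0 except Tubb3 at -0.18, the 4 gamma, delta and epsilon genes run from -0.66 (Tubg2) to 1.52 (Tube1), and Stmn1 stands apart from the other stathmin genes.

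New tubulin is folded by the prefoldin and chaperonin complexes and joined into dimers by the tubulin cofactors. Most of these genes were near level. All 13 measured prefoldin and chaperonin genes reached the floor, with a median difference of 0.095. Of these, 2 were counted as higher and 0 as lower, against 10.9% and 5.16% of all genes reaching the floor. Tcp1, a chaperonin subunit, was higher by 0.70; Cct7, higher by 0.60, had both values within the background control range. Of 8 cofactor genes, all reaching the floor, 1 was counted as higher and 1 as lower, against the same shares, with a median of -0.02. Tbce, which helps release the folded dimer, had 10.52 in LysM(+) and 11.50 in TB/TB, a difference of -0.98 or 1.97-fold lower, the lowest difference in the microtubule lists. Tbccd1 was higher by 0.80 with both values within the background control range. The dimer cofactor genes Tbca, Tbcb, Tbcc and Tbcd differed by 0.27, 0.11, -0.14 and -0.13.

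Several partners of Tubg1 had larger differences than the 0.10 of Tubg1 itself. The gamma-tubulin ring complex and its branching partner augmin had 17 measured members of 19 listed, with a median difference of 0.34. By any amount, 12 of the 17 were higher and 5 lower, and 5 lay within the background control range on at least 1 array. Of the 15 that reached the floor, 5 were counted as higher and 0 as lower, against 10.9% and 5.16% of all genes reaching it. Cdk5rap2, which activates the ring complex at the centrosome, was higher by 1.06 (7.36 and 6.30, the latter within the background control range). The augmin subunit genes Haus6 and Haus2 were higher by 0.94 and 0.68, and the ring complex subunit gene Tubgcp2 by 0.86. Nedd1, the fifth gene counted, brings the ring complex to the centrosome and was higher by 0.61. Tubgcp5, another ring complex gene, had 7.71 in LysM(+) and 8.06 in TB/TB, a difference of -0.35.

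Enzymes that modify tubulin after synthesis were mostly dim. Of 18 measured of 22 listed, 10 lay within the background control range on both arrays. The median difference of 0.04 therefore rests largely on background-level values. Of the 12 that reached the floor, 0 were counted as higher and 1 as lower, against 10.9% and 5.16% of all genes reaching it. The gene counted was Ttll9, at -0.71, with both values within the background control range. Among the 8 above that range, Atat1, the enzyme that acetylates alpha-tubulin inside the microtubule, had 9.24 in LysM(+) and 9.81 in TB/TB, a difference of -0.56. Hdac6 and Sirt2, which remove that acetyl group, differed by 0.35 and 0.0079. Microtubule-associated and plus-end proteins had a median difference of 0.21 over 24 measured members of 27 listed, with 7 within the background control range on both arrays. Of the 19 that reached the floor, 2 were counted as higher and 0 as lower, against the same 10.9% and 5.16%. Those counted were Camsap1, which binds minus ends, at 0.83, and Slain2, which promotes plus-end growth, at 0.69.

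The spindle microtubule genes all had higher values in LysM(+), against 57.1% of genes reaching the floor, and 13 of the 15 were counted, against 10.9%. This list was chosen with earlier results of these data known, so these shares only describe it. Their median of 1.66 is not an exact size to set beside the 0.66 of the tubulin and stathmin genes, because 10 of the 15 (9 of those counted) lay within the background control range on at least 1 array and 5 reached the floor on 1 array alone. The 5 spindle genes above that range on both arrays were Nusap1, Kif11, Kif4, Tpx2 and Ckap2, with differences of 3.01, 2.63, 1.68, 1.48 and 0.53. Nusap1, which binds and bundles spindle microtubules, had 10.02 in LysM(+) and 7.01 in TB/TB. Kif20a and Prc1, which organise the central spindle, were higher by 2.96 and 2.76 and Cep55, which acts in abscission, by 2.90; the TB/TB values of these 3 were within the background control range. The 5 genes above that range on both arrays spanned 0.534 to 3.01. Stmn1, at 2.48, and Tubb6, at 1.47, lay within that span. So did Tuba4a (0.92), Tuba1b (0.77), Tubb2a (0.68), the dim Tubb2b (0.64) and Tuba1a (0.56). Tuba1c (0.526), Tubb5 (0.49) and Tubg1 (0.10) lay below it. The low end of that span was set by Ckap2 alone. Ckap2 was not counted, and its TB/TB value of 6.90 lay just above the highest background control, 6.81. The 4 counted genes above the background control range on both arrays spanned 1.48 to 3.01. Of the tubulin and stathmin genes, only Stmn1 lay within that narrower span. The 9 measured severing and depolymerising genes had a median of 0.30. Of the 6 that reached the floor, 2 were counted as higher and 1 as lower, against 10.9% and 5.16% of all genes reaching it. Kif2c, a kinesin that depolymerises microtubules at mitotic centromeres, was higher by 2.58 and Fignl1, better known for its part in DNA repair, by 1.39, whereas the katanin severing subunit gene Katna1 was lower (8.27 in LysM(+) and 8.90 in TB/TB, -0.63).

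Of 7 measured kinases that phosphorylate stathmin (of 10 listed), 5 reached the floor. Among these, 2 were counted as higher and 0 as lower, against 10.9% and 5.16% of all genes reaching the floor. Those counted were the mitotic pair of stathmin kinases. Cdk1 and Aurkb, which act on it in mitosis, were higher by 3.34 and 2.01; the TB/TB value of Cdk1, 5.22, was within the background control range. The other 5 were not counted: Prkaca, a catalytic subunit of the cAMP-dependent kinase, differed by 0.39, Uhmk1 by 0.25, Camk2g by 0.57, Mapk13 by 0.20 and Camk4 by -0.38. These last 2 were at background level.

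**Figure D4:**
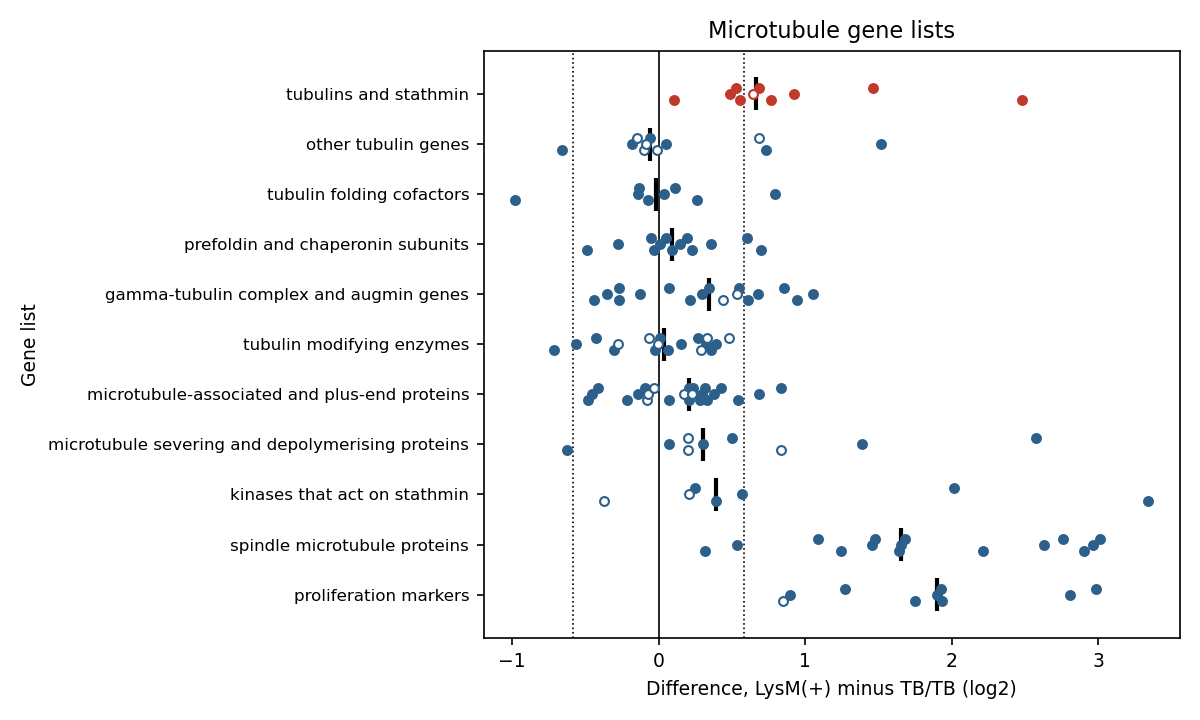
Difference LysM(+) minus TB/TB (log2) of each measured gene in 11 gene lists, with the list median as a black bar; filled circles are genes whose brighter value reached the floor, open circles genes under it, and dotted lines mark 1.5-fold. The tubulin and stathmin genes (red, median 0.66) lie between the folding cofactors (median -0.02) and the spindle genes (median 1.66), and the proliferation markers have a median of 1.90; the last 2 lists hold many genes with a TB/TB value at background level, so their medians are not exact.

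Proliferation markers, like the tubulin and stathmin genes, had higher values in LysM(+). Mki67, present in cycling cells, had 13.66 in LysM(+) and 10.86 in TB/TB, and the DNA replication clamp gene Pcna had 16.59 and 15.69. Of the 9 markers measured, 8 reached the floor and all 8 were counted as higher, against 10.9% of all genes reaching it. However, 5 of the 9 lay within the background control range on at least 1 array (Top2a, Birc5 and Bub1 in TB/TB, Cdc20 and Cenpf on both). The median of the markers is therefore not an exact size. The 4 above that range on both arrays, Mki67, Mcm5, Mcm2 and Pcna, were higher by 2.80, 1.93, 1.75 and 0.90, whereas the differences of Bub1 (2.98) and Cdc20 (1.93) rest on dim values. The part of cell division in the tubulin and stathmin values was not tested. In RNA from whole cultures, more cells of a kind and more RNA per cell cannot be told apart. Neutrophil markers were mixed. Of the 9 measured, 7 were higher by any amount, against 57.1% of all genes reaching the floor, and 3 were counted, against 10.9%. Those counted were Ltf by 1.38, Retnlg by 1.32 and Elane by 1.18, the last 2 within the background control range in TB/TB. The granule gene Mpo, bright on both arrays, differed by -0.30. Prtn3 differed by -0.02 and Camp by 0.05, both at background level. Summed log2 values of the neutrophil markers were 89.8 in LysM(+) and 85.0 in TB/TB, and their part was not tested either. Progenitor, erythroid and dendritic cell markers were mostly dim, reaching the floor for 1 of 6, 1 of 3 and 2 of 7 measured genes, so their values cannot show whether such cells differed. Stromal markers reached it for 5 of 7, with a median difference of 0.06. Because each genotype had 1 array, genotype, culture and array cannot be told apart.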

How the data were processed

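Total RNA was labelled with biotin and hybridised to whole-transcript arrays, 1 for LysM(+) and 1 for TB/TB, per the labels' protocols. The authors deposited log2 values per probe set, made with RMA (background correction, normalization between arrays and probe summary) with Affymetrix Expression Console named beside RMA (per the submitters' processing notes, with no version stated). Base 2 was inferred from the method, and every fold depends on it. Of 28846 probe sets, 19572 carried a gene symbol, all matched by Entrez ID to RefSeq symbols (GRCm38.p6), giving 19505 genes; 55 genes had several probe sets, which were averaged. A gene was counted at 1.5-fold if the brighter array reached 6.12, the median over named probe sets of their mean. No test between the groups was run. Within each related list the counted genes with the largest difference, up to 4, were to be named, and all tubulin and stathmin genes; any other gene of a list that is named (such as Mcm2, Pcna, Top2a, Kif11, Nedd1, Atat1, Hdac6, Sirt2, Tubgcp5, Gp9, Itga2b and the kinases and cofactors that were not counted) was chosen after its value was seen. Of 227 listed genes, 200 were measured; the rest were not analysed here. The members and lists were chosen with earlier results of these data known. GGGCGG and TATAAA were added after the promoters were seen. Protein sequences were not used here. Alternatives were centring, quantile normalization, loess (span 0.4), the brightest probe set, other floors and other folds. The counting step alone was tested on simulated data with known differences. Python 3.11.15, pandas 2.3.3, numpy 2.4.6 and statsmodels 0.14.6 were used.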

Additional observations from a re-analysis of the deposited data

How the results depend on the processing

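The differences of all 10 tubulin and stathmin genes stayed above 0 and on their side of 1.5-fold after centring on the median, quantile normalization, loess and use of the brightest probe set, with Tubg1 lowest at 0.02 (loess) and Tubb2a, at 0.59 with loess, nearest to the limit among those counted. The count of genes at least 1.5-fold higher depended on the limit: it was 2 at 2-fold (Stmn1 and Tubb6) and 8 at the looser limit tried, which Tuba1a, Tuba1c and Tubb5 also passed, against 5 at 1.5-fold; without the floor it was 6, with Tubb2b added. The count of lower genes was 0 under every setting tried. The median difference ran from 0.66 to 0.68. These scalings moved the median of all genes by at most 0.0145. All 19 other list medians kept their side of 1.5-fold under the 4 scaling and probe set choices. Signal over background limits Tubb2b, Tubb1, Tubb3, Tubg2 and Tube1. No paired analysis was possible because each group had 1 array, and no array could be left out for the same reason.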

Other observations

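Tuba1b, Tuba1a and Tuba1c follow each other on chromosome 15 with 0 other protein-coding genes between them in the RefSeq table, as do Tubb2a and Tubb2b on chromosome 13 and Tubg1 and Tubg2 on chromosome 11. Neighbours within 3 protein-coding genes of these clusters were chosen by position after the tubulin values were seen, and 17 were measured. Only 6 of the 17 reached the brightness floor and could be counted. Of these 6, 1 was counted as differing, against 10.9% higher and 5.16% lower among all genes reaching the floor: Troap, which encodes a protein needed for spindle assembly, lies the second gene beyond Tuba1c, and had 6.66 in LysM(+) and 5.46 in TB/TB, a difference of 1.20, with both values within the background control range. Lmbr1l and Prph, the genes next to the Tuba1 cluster on either side, differed by -0.19 and -0.45, and Bphl and Psmg4, next to the Tubb2 pair, by -0.0034 and -0.09. Retreg3 and Plekhh3, next to the Tubg pair, differed by 0.10 and -0.03. Of these 6 adjoining genes, 3 (Prph, Psmg4 and Plekhh3) were under the floor on both arrays, and 0 of the other 3 was counted.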
